A study of Rattus norvegicus with 16 samples.

Results

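Kupffer cells are the resident macrophages of the liver, and 7 genes used as markers of these cells or of macrophages in general were followed here in whole rat liver: Clec4f, C1qb, C1qc, Lyz2, Cd14, Aif1 and Csf1r. All probe sets that the array annotation assigns to 1 of these symbols were taken, which gave 13 of the 8740 probe sets on the array. Of these, 12 passed the filter on low values, as did 5323 probe sets of the whole array, and all 7 genes kept at least 1 probe set. The exception was the dimmest of 3 Aif1 probe sets.

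Gene expression was measured on 16 Affymetrix arrays, each hybridised with total RNA from a rat liver, in 4 groups of 4. Male F344 rats, 6 weeks old on arrival and housed singly, were dosed by gavage on alternate days over 5 days (3 doses), with the livers collected 24 h following the final dose. The treated groups received 0.3 mmol/kg of 1 of 3 dithiolethiones: D3T, which is 3H-1,2-dithiole-3-thione itself, oltipraz (OLT), which carries a methyl and a pyrazinyl group on that ring, or TBD, which carries a tert-butyl group. The fourth group received the vehicle, saturated sucrose, according to the treatment protocol, although its sample titles call these livers untreated. The comparisons ask how liver gene expression differs after each compound at 1 common dose and time. The deposited values are on a log2 scale, and had array medians of 3.27 to 3.58. Arrays of the same group correlated at 0.983 to 0.997, and OLT replicate 1 and TBD replicate 4 stood apart from the others on the second principal component, which held 13% of the variance. No read depth exists for arrays, so the 4 livers per group limit the precision.

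Clec4f encodes a C-type lectin receptor of Kupffer cells that binds galactose-bearing sugars. C1qb and C1qc encode chains of C1q, the recognition molecule of the classical complement pathway, which in tissues is made largely by macrophages. Aif1 encodes a calcium-binding, actin-bundling protein of macrophages, and Lyz2 encodes lysozyme, an enzyme that cuts bacterial cell walls. Cd14 is a co-receptor that passes lipopolysaccharide to Toll-like receptor 4, and Csf1r is the receptor for CSF1 and IL34, on which tissue macrophages depend for survival.

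The proximal promoters of C1qb and Clec4f, which were lower after every compound, and of Lyz2, which did not pass the test, are shown for their sequence context. They come from RefSeq on assembly GRCr8 and span 300 bases around the annotated start, 5′ to 3′ on the gene's strand. Capitals mark GAGGAA, a core of sites for the myeloid factor PU.1, TTGCNNAA, a C/EBP-type motif, and TGACNNNGC, the core of the antioxidant response element, each searched on both strands. C1qb lies at chr5:154407778-154408077, Clec4f at chr4:117696358-117696657 and Lyz2 at chr7:54797962-54798261, all on the minus strand.
C1qb: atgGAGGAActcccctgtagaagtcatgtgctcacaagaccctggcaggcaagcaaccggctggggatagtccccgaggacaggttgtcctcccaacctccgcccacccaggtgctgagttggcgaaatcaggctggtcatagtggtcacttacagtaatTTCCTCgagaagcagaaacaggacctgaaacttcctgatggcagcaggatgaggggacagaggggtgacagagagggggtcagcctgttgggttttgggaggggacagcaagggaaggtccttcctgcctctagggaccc
Clec4f: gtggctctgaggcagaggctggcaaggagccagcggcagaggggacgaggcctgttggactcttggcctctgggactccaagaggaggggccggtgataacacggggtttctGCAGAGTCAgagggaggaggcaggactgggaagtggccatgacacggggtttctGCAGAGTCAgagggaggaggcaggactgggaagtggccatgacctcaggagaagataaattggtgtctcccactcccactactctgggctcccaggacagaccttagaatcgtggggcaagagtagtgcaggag
Lyz2: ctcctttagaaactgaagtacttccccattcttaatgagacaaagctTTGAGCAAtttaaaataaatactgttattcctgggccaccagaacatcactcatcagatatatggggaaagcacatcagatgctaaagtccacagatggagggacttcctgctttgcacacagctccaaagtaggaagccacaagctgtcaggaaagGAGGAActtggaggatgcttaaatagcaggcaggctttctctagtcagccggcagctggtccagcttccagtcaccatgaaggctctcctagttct
The C1qb promoter held 2 copies of GAGGAA, which stands as TTCCTC where it lies on the opposite strand. The Clec4f promoter held none of these, but had 2 copies of the antioxidant response element core on the opposite strand, within a stretch that is repeated. The Lyz2 promoter held 1 GAGGAA and 1 C/EBP-type motif. Of the 5 marker genes with an entry, 4 held GAGGAA, 1 held the C/EBP-type motif and 1 the antioxidant response element core, whereas 27.6%, 10.6% and 12.1% of 33469 rat promoters of that length did. These are matches of letters, and no binding was measured.

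Clec4f, C1qb and Aif1 were lower after each of the 3 compounds, and the other 4 marker genes did not pass the test after any of them. With 1 probe set per gene, the brightest one tested, 3 of 7 marker genes fell with D3T, 3 of 7 with OLT and 3 of 7 with TBD (limma, Benjamini-Hochberg adjusted p under 0.05 over all tested probe sets). Among all 3104 genes tested, 13.1% fell with D3T, 8.92% with OLT and 10.0% with TBD. No marker gene rose, where 4.61%, 2.61% and 2.80% of all genes did. At an unadjusted p under 0.05 the counts were the same, 3 lower and 0 higher with each compound. The share of all genes at that unadjusted threshold was not counted, so the unadjusted counts have no share beside them. The median difference over the 7 genes was -0.43 with D3T, -0.02 with OLT and -0.28 with TBD, beside medians of 0.03, -0.03 and -0.02 over all genes. In the same 3 genes every treated array lay below every vehicle array. Of all 3104 genes tested, 17.3%, 10.9% and 11.0% lay below vehicle in this way with D3T, OLT and TBD. All 3 comparisons use the same 4 vehicle livers, so they are not independent of each other. In whole liver, fewer cells of a type and less RNA per cell cannot be told apart.

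**Figure D1:**
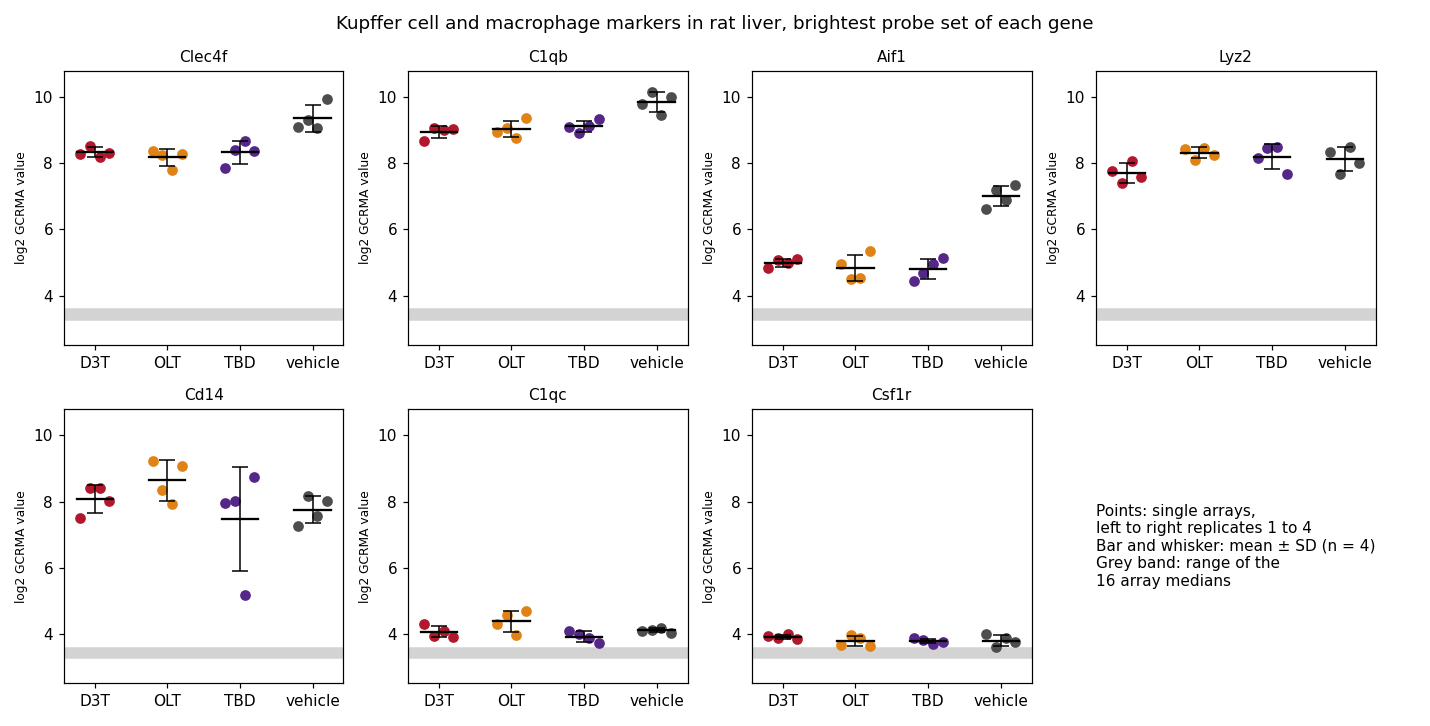
Deposited log2 values of the marker genes on each array (points, brightest probe set) with the group mean and SD (bar and whisker, n = 4 per group) and the range of the array medians (grey band), in the order D3T, OLT, TBD and vehicle. Clec4f, C1qb and Aif1 lie below all vehicle arrays on every array of the treated groups, whereas the other genes overlap with vehicle.

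The Clec4f probe set (M55532_at) read 8.29, 8.54, 8.19 and 8.32 in D3T livers, 8.38, 8.25, 7.80 and 8.29 in OLT livers and 7.86, 8.41, 8.68 and 8.39 in TBD livers, against 9.09, 9.32, 9.08 and 9.95 in vehicle livers. All 12 treated arrays lay below all 4 vehicle arrays. The mean was 8.33 ± 0.15 with D3T, 8.18 ± 0.26 with OLT and 8.33 ± 0.34 with TBD, against 9.36 ± 0.41 with vehicle (SD, n = 4 each). The log2 difference from vehicle was -1.02 ± 0.20 for D3T (SE, limma adjusted p = 0.00317), -1.18 ± 0.20 for OLT (adjusted p = 0.00205) and -1.02 ± 0.20 for TBD (adjusted p = 0.00417). On the linear scale these are levels 2.03-fold, 2.27-fold and 2.03-fold lower than vehicle. Clec4f stood 4.31 to 6.56 above the array median on all 16 arrays, so the Kupffer cell lectin was well within the range of measured genes.

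C1qb was measured by 2 probe sets. The brighter one (X71127_at) read 8.68, 9.05, 9.01 and 9.05 in D3T livers, 8.95, 9.08, 8.76 and 9.37 in OLT livers and 9.09, 8.93, 9.14 and 9.33 in TBD livers, against 9.79, 10.16, 9.46 and 10.00 in vehicle livers. No treated array reached the lowest vehicle array. The differences were -0.91 ± 0.16 for D3T (adjusted p = 0.00127), -0.81 ± 0.16 for OLT (adjusted p = 0.00424) and -0.73 ± 0.16 for TBD (limma adjusted p = 0.00700), that is 1.87-fold, 1.76-fold and 1.66-fold lower. The second probe set (X71127_g_at) averaged 5.76 ± 0.28 with D3T, 6.04 ± 0.68 with OLT and 6.15 ± 0.76 with TBD, against 7.47 ± 0.56 with vehicle (SD, n = 4 each). It moved the same way, by -1.71 for D3T, -1.43 for OLT and -1.32 for TBD, with limma adjusted p = 0.00729, 0.0283 and 0.0375. On this probe set 1 TBD array, replicate 4 at 7.04, was within the vehicle range.

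C1qc, whose product assembles with that of C1qb, was dim on this array. Its brightest probe set (rc_AA891576_i_at) read 4.30, 3.95, 4.09 and 3.92 in D3T livers, 4.30, 4.57, 3.98 and 4.70 in OLT livers and 4.09, 3.98, 3.89 and 3.71 in TBD livers, against 4.09, 4.12, 4.17 and 4.03 in vehicle livers. The groups overlapped in every comparison with vehicle. The differences were -0.04 for D3T (95% confidence interval -0.34 to 0.26), 0.28 for OLT (-0.01 to 0.58) and -0.18 for TBD (-0.48 to 0.11), and none passed the test. The OLT difference was 0.42 without OLT replicate 3, where it passed with limma adjusted p = 0.0489. This probe set lay 0.30 to 1.42 above the array median, and the second of the 3 C1qc probe sets lay 0.16 to 0.27 above it. Within groups the second followed the array median at Pearson's r = 0.99. The third (rc_AA891576_s_at) stood at -0.84 to 0.23 relative to the array median.

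With each gene represented by its brightest probe set, Aif1 had the largest fall of the marker genes with each compound. Its brightest probe set (U10894_s_at) read 4.84, 5.07, 4.97 and 5.11 in D3T livers, 4.95, 4.51, 4.53 and 5.33 in OLT livers and 4.43, 4.68, 4.96 and 5.13 in TBD livers, against 6.63, 7.19, 6.88 and 7.34 in vehicle livers. The highest treated array was more than 1 log2 unit below the lowest vehicle array. Aif1 differed from vehicle by -2.01 ± 0.20 for D3T (adjusted p = 2.37e-05), -2.18 ± 0.20 for OLT (adjusted p = 1.97e-05) and -2.21 ± 0.20 for TBD (limma adjusted p = 1.91e-05), levels 4.04-fold, 4.53-fold and 4.63-fold lower. The second Aif1 probe set (U17919_s_at) read 5.00 to 5.14 in D3T livers, 4.89 to 5.19 in OLT livers and 5.02 to 5.30 in TBD livers, against 5.62 to 7.04 in vehicle livers. Its differences of -1.02, -1.09 and -0.99 also passed (limma adjusted p = 0.00508, 0.00560 and 0.00839), without overlap. The third (U33471_at) read 1.84 to 2.05 on all 16 arrays, below every array median, and was not tested. Averaged over its 3 probe sets, Aif1 differed by -1.04, -1.11 and -1.08, so the size of the fall depends on the probe set by more than 1.5 times. That average includes the untested U33471_at, which differed by only -0.08 with D3T, -0.08 with OLT and -0.06 with TBD. With it included the order turns too. Averaged in the same way, C1qb differed by -1.31 with D3T and -1.12 with OLT, and Clec4f by -1.18 with OLT. These are larger falls than the averaged fall of Aif1. The 2 tested Aif1 probe sets alone differed by -2.01 and -1.02 with D3T and by -2.18 and -1.09 with OLT. The middle of each of these pairs is a larger fall than the averaged C1qb and Clec4f falls above. The turn in order therefore comes from the inclusion of U33471_at.

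Lyz2 did not follow these genes. It read 7.77, 7.39, 8.08 and 7.59 in D3T livers, 8.44, 8.11, 8.45 and 8.25 in OLT livers and 8.16, 8.45, 8.49 and 7.67 in TBD livers, against 8.35, 7.68, 8.51 and 8.02 in vehicle livers. Each treated group overlapped with vehicle. The differences were -0.43 for D3T (95% confidence interval -0.87 to 0.01, limma adjusted p = 0.176), 0.17 for OLT (-0.27 to 0.62) and 0.06 for TBD (-0.39 to 0.50). The intervals for OLT and TBD do not reach the fall of Clec4f, C1qb or Aif1 with the same compound. With arrays weighted by their quality, the D3T difference was -0.71 and passed (limma adjusted p = 0.000259).

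Cd14 varied more between animals than any other marker gene, with the brightest probe set of each compared. Its brighter probe set (AF087943_s_at) read 7.51, 8.41, 8.42 and 8.01 in D3T livers, 9.24, 8.34, 7.93 and 9.08 in OLT livers and 7.97, 8.01, 5.18 and 8.74 in TBD livers, against 7.26, 8.18, 7.57 and 8.02 in vehicle livers. TBD replicate 3 was far below all other arrays. The differences of 0.33 for D3T (95% confidence interval -0.91 to 1.57), 0.89 for OLT (-0.35 to 2.13) and -0.28 for TBD (-1.52 to 0.96) did not pass, and the intervals include changes of over 1 log2 unit. Without TBD replicate 3 the TBD difference turned to 0.48. The second Cd14 probe set (AF087944mRNA_s_at) averaged 4.01 ± 0.34 with D3T, 4.31 ± 0.52 with OLT and 4.04 ± 0.60 with TBD, against 3.81 ± 0.07 with vehicle (SD, n = 4 each), and passed in no comparison.

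Csf1r gave little signal. Its probe set (X61479mRNA_at) read 3.94, 3.87, 3.98 and 3.84 in D3T livers, 3.65, 3.95, 3.86 and 3.64 in OLT livers and 3.86, 3.82, 3.70 and 3.76 in TBD livers, against 3.99, 3.59, 3.86 and 3.75 in vehicle livers. All groups overlapped, and on every array the value lay 0.32 to 0.49 above the array median. The differences were 0.11 for D3T (95% confidence interval -0.09 to 0.32), -0.02 for OLT (-0.22 to 0.18) and -0.01 for TBD (-0.21 to 0.19). Once the 40th percentile of each array was a covariate, the D3T difference was 0.08 and passed (limma adjusted p = 0.0369).

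**Figure D2:**
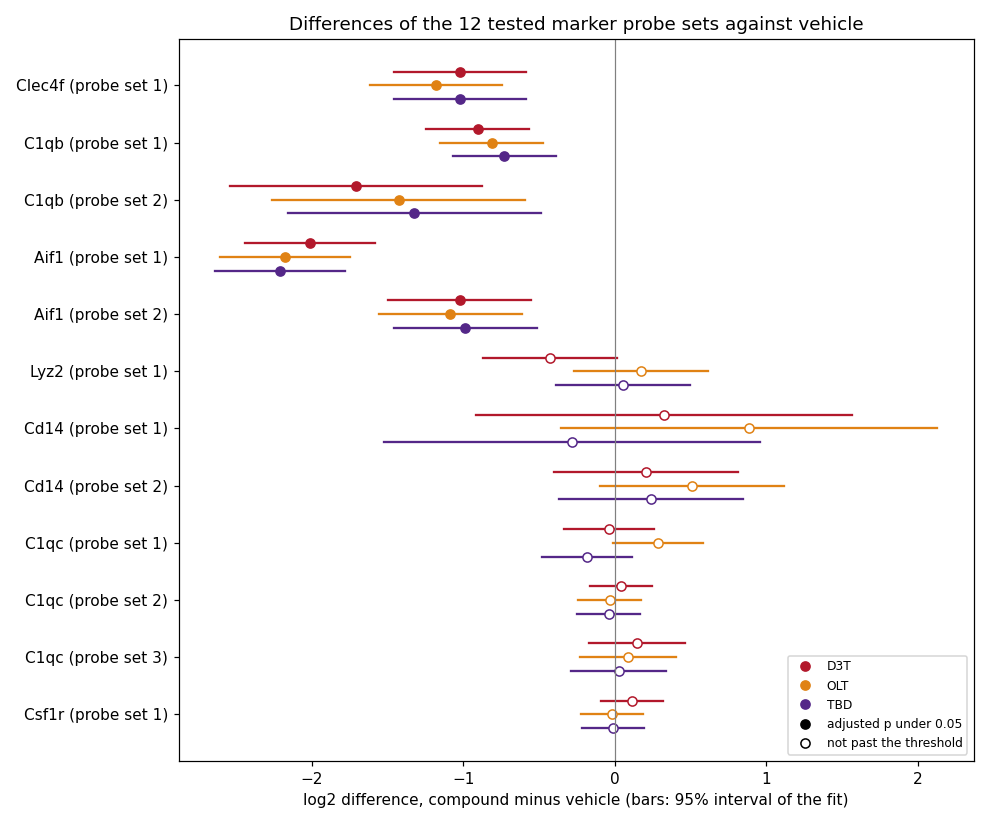
Log2 difference from vehicle (horizontal) for the 12 tested marker probe sets and each compound with its 95% confidence interval (n = 4 per group), filled where the limma adjusted p was under 0.05. The intervals of the Clec4f, C1qb and Aif1 probe sets lie below 0 for D3T, OLT and TBD, with the brightest Aif1 probe set near -2, and those of the other 4 genes include 0.

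The 3 compounds share the dithiolethione ring and differ in what it carries, and they were given at 1 dose and for 1 time, so they can be set against each other directly. In 3 pairs of compounds and 7 genes, no marker gene differed by limma after adjustment over all tested probe sets. At an unadjusted p under 0.05 there were 2 lower in D3T than in OLT livers (Lyz2 and C1qc), 1 lower in TBD than in OLT livers (C1qc) and 1 lower in D3T than in TBD livers (Lyz2). The share of all genes at an unadjusted p under 0.05 was not counted, so these counts have no share beside them. At an adjusted p under 0.05, where no marker gene differed, the shares of all 3104 genes were small. They were 0.870% between D3T and OLT, 0.0322% between TBD and OLT and 0.580% between D3T and TBD. For Clec4f the differences were 0.16 between D3T and OLT (95% confidence interval -0.28 to 0.59), 0.16 between TBD and OLT (-0.28 to 0.59) and 0.00 between D3T and TBD (-0.44 to 0.44). For C1qb they were -0.09 (-0.43 to 0.25), 0.08 (-0.25 to 0.42) and -0.18 (-0.51 to 0.16) for the same pairs. For Aif1 they were 0.17 (-0.26 to 0.60), -0.03 (-0.46 to 0.40) and 0.20 (-0.23 to 0.63). These intervals leave room for differences of up to about 0.6 on the log2 scale between compounds in the 3 genes that fell. Lyz2 was lower in all D3T livers than in any OLT liver (4.19% of all genes were), by -0.60 (-1.05 to -0.16), and lower with D3T than with TBD by -0.48 (-0.93 to -0.04), with limma adjusted p = 0.229 and 0.425. C1qc was lower with TBD than with OLT by -0.47 (-0.76 to -0.17), with overlapping groups and limma adjusted p = 0.9999. Cd14 differed by -0.56 (-1.80 to 0.68) between D3T and OLT, -1.17 (-2.41 to 0.07) between TBD and OLT and 0.61 (-0.63 to 1.85) between D3T and TBD.

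Among livers of the same group, Aif1 deviated together with Clec4f and with C1qb at unadjusted p values under 0.05, and neither pair passed after adjustment. After the group means were removed, the 21 pairs of marker genes were correlated over the 16 arrays, with permutation of arrays within groups. Aif1 and Clec4f had Pearson's r = 0.68 (permutation p = 0.0161, adjusted 0.0920) and Spearman's rho = 0.62 (p = 0.0297), with r = 0.57 without the 2 arrays farthest from the median for Clec4f. Aif1 and C1qb had r = 0.68 (permutation p = 0.0175, adjusted 0.0920) and rho = 0.71 (p = 0.0152), with r = 0.68 without the 2 arrays farthest from the median for C1qb. C1qb and Lyz2 ran opposite ways at r = -0.68 (permutation p = 0.00887, adjusted 0.0920) and rho = -0.68 (p = 0.00974), with r = -0.61 without 2 arrays. The only pair past the adjusted threshold was Aif1 and Csf1r, at r = -0.83 (permutation p = 0.00223, adjusted 0.0468) and rho = -0.86 (p = 0.00163, adjusted 0.0342), with r = -0.77 without 2 arrays. Csf1r followed the array median within groups at r = 0.98 (permutation p = 2e-05) and Aif1 ran against it at r = -0.83 (permutation p = 0.00289). After each array was centred on its median, an alternative chosen after seeing the data, Aif1 with Clec4f gave r = 0.80 (adjusted permutation p = 0.0387) and Aif1 with C1qb r = 0.82 (adjusted permutation p = 0.0359), and these were the 2 pairs that passed. After quantile normalization, also chosen after seeing the data, the same pairs gave r = 0.27 (permutation p = 0.317) and r = 0.12 (permutation p = 0.719), Aif1 with Csf1r gave r = -0.53 (adjusted permutation p = 0.0861), and Lyz2 with Csf1r was the pair that passed, at r = 0.83 (adjusted permutation p = 0.0422). Which pairs pass therefore depends on the scaling. Cd14 and Aif1 had r = 0.27 over all arrays and r = 0.82 (adjusted permutation p = 0.0388) without TBD replicate 3, the array with the low Cd14 value. Without OLT replicate 1 and TBD replicate 4 no pair passed, and leaving out single arrays gave 0 to 2 pairs past the threshold. With the 40th percentile of each array as a covariate, Aif1 still differed from vehicle by -1.94, -2.26 and -2.26, Clec4f by -0.98, -1.23 and -1.06 and C1qb by -0.87, -0.85 and -0.76 for D3T, OLT and TBD, all past the threshold.

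**Figure D3:**
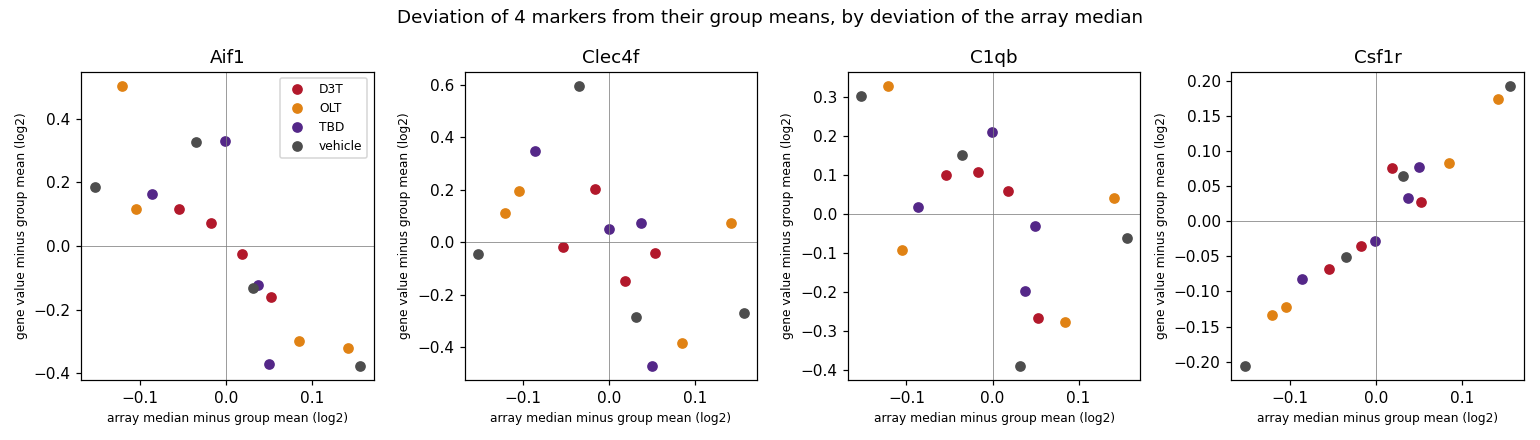
Deviation of Aif1, Clec4f, C1qb and Csf1r from their group means (vertical, log2) against the deviation of the array median (horizontal, log2), 1 point per array, coloured by group (D3T, OLT, TBD and vehicle). Each gene is shown by its brightest probe set. Csf1r rises with the array median (r = 0.98) and this Aif1 probe set falls with it (r = -0.83). The second Aif1 probe set, not shown, had r = -0.08.

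Over the 16 arrays as a whole, the genes whose values were most like those of each marker were found by Pearson correlation. These correlations include the group differences and are given as descriptions. Aif1 was most like Il6r, the interleukin 6 receptor (r = 0.969), Ptp4a1 (r = 0.952) and Polg2 (r = 0.95). Clec4f was most like Aspg (r = 0.943), Gcgr, the glucagon receptor (r = 0.939), and Sdc1 (r = 0.923). C1qb was most like Slc6a13 (r = 0.921), Anxa5 (r = 0.917) and Igfbp3 (r = 0.914). Cd14 was most like Cald1 (r = 0.809), Pls3 (r = 0.768) and Gclm (r = 0.765), and Lyz2 was most like Aldh7a1 (r = 0.768), Fxyd1 (r = 0.709) and Cyp2c11 (r = 0.693). C1qc was most like Nup50 (r = 0.731), Bbx (r = 0.716) and Ceacam1 (r = 0.672). The near-perfect likeness of Csf1r to Stc1 (r = 0.997), Spn (r = 0.994) and Ms4a2 (r = 0.993) stands beside its correlation with the array median.

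Some other macrophage and monocyte markers fell as well. Of 11 tested genes of that list, apart from the 7 above, 4 fell with D3T, 3 with OLT and 4 with TBD, with medians of -0.18, -0.12 and -0.30. Beside these counts, 13.1%, 8.92% and 10.0% of all genes fell with D3T, OLT and TBD. Ctss, a lysosomal protease of antigen-presenting cells, was lower by -1.70, -1.34 and -1.02 (limma adjusted p = 0.00143, 0.0105 and 0.0382). Lgals3, the lectin galectin-3, was lower by -1.59 with D3T, -0.77 with OLT and -0.90 with TBD, all past the threshold. Cyba in all 3 comparisons, Fcgr2b with D3T and Cd53 with TBD made up the rest, and these were picked out after their values were seen. The summed level of the list was 10.90 to 10.97 in D3T livers, 10.99 to 11.45 in OLT livers and 11.06 to 11.40 in TBD livers, against 11.37 to 11.72 in vehicle livers (log2). The OLT and TBD ranges overlap with that of vehicle. Such sums were taken over linear values, so the brightest genes of a list weigh most in them.

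Genes of antigen presentation and complement, which macrophages share with other cells, showed falls too. The counts of this paragraph stand beside the 13.1%, 8.92% and 10.0% of all genes that fell with D3T, OLT and TBD. The shares of all genes that rose were 4.61%, 2.61% and 2.80%. Of 6 tested MHC class II genes, 5 fell with D3T, 3 with OLT and 2 with TBD, among them RT1-Bb by -1.58, -1.51 and -1.27 and Cd74, the invariant chain, by -1.05, -1.12 and -0.95. Of 13 tested complement genes other than C1qb and C1qc, 7 fell with D3T, 5 with OLT and 4 with TBD. C4bpb, a chain of the C4b-binding protein and a product of hepatocytes, fell (-1.38, -1.24 and -0.93). C1s, the protease that C1q activates through C1r, fell with each compound (-1.16, -0.87 and -0.59). Of the 3 tested genes of lipopolysaccharide signalling, the pathway of Cd14, Nfkbia fell with each compound (-0.88, -0.77 and -1.20), while Nfkb1 (-0.40, 0.27 and 0.29) and Ticam1 (0.19, 0.22 and 0.12) did not pass. A further list held CSF1 receptor ligands and partners together with myeloid transcription factors. Of its 4 tested genes, the transcription factor gene Cebpb fell with each compound (-0.87, -1.31 and -1.04). Cebpa, also a transcription factor gene, rose by 0.63 with D3T. Of 10 tested genes of inflammatory cytokines and mediators 3 fell with each compound, among them the receptor gene Il6r (-2.10, -2.14 and -2.15) and Il18 (-1.25, -1.22 and -1.24). The medians of these 10 genes were 0.13 with D3T, -0.05 with OLT and 0.01 with TBD. Only 4 of the 10 lay below 0 with D3T, 7 with OLT and 5 with TBD.

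Markers of other liver cells were counted in the same way, beside the 13.1%, 8.92% and 10.0% of all genes that fell. The shares of all genes that rose were 4.61%, 2.61% and 2.80%. Of 12 tested stellate cell and fibroblast markers, 3 fell with D3T, 2 with OLT and 3 with TBD, led by Col1a1 (-4.01, -2.16 and -2.84). Among the same 12, Bgn alone rose, with OLT by 0.50. The list as a whole had medians near 0, of 0.01 with D3T, -0.02 with OLT and -0.02 with TBD. Below 0 lay 6 of the 12 genes with D3T, 7 with OLT and 7 with TBD. Of 6 tested endothelial markers, Lyve1 fell with D3T (-1.92) and with TBD (-1.21), and differed by -0.76 with OLT, where it did not pass. Of 14 tested hepatocyte markers 2 fell and 3 rose with D3T, 1 fell with OLT and 2 fell with TBD, with medians of 0.01, -0.05 and 0.04. The hepatocyte falls, and the single endothelial marker that passed, are close to the shares of all genes that fell. The summed hepatocyte level was 17.66 to 17.77 in D3T livers, 17.40 to 17.73 in OLT livers and 17.58 to 17.74 in TBD livers, against 17.53 to 17.64 in vehicle livers (log2). Of 6 tested T and NK cell markers, Ccl5 alone passed, with means of 2.38 in D3T livers, 2.71 in OLT livers and 2.44 in TBD livers, against 4.10 in vehicle livers. The treated means lie below the array medians, so Ccl5 passed the filter on low values through the vehicle livers, and its count is no support for a change of the list. The other 5 lay near the array median and did not pass. The part of any of these lists in the falls of Clec4f, C1qb and Aif1 was not tested.

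**Figure D4:**
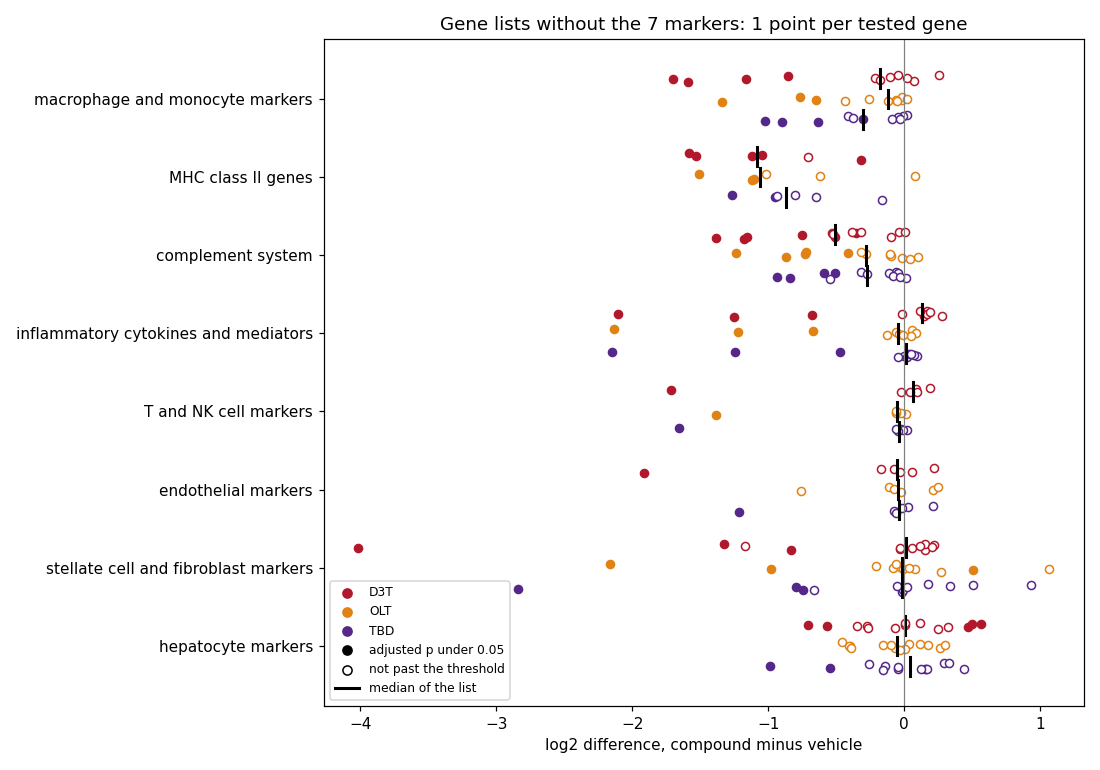
Log2 difference from vehicle (horizontal) of the tested genes of 8 cell type or pathway lists for D3T, OLT and TBD, 1 point per gene, filled where the limma adjusted p was under 0.05, with a bar at the median, the 7 marker genes left out of the other lists. MHC class II genes sit mostly below 0, with medians of -1.09, -1.06 and -0.87, and hepatocyte markers lie around 0.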

How the data were processed

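Total RNA of 16 rat livers was hybridised to single-colour Affymetrix arrays, 4 per group. The authors deposited 1 table of log2 values, and per the submitters' processing notes these came from GCRMA (version not given in the sources used). The log2 scale was read from the values. Every column was assigned to a sample by its label, and 0 columns belonged to no sample. Probe sets were named from the platform annotation and updated through Entrez IDs for 6985 of the 7006 with 1 symbol, while 308 had several symbols and 1426 none. A probe set was tested if it exceeded the 40th percentile of its array on 4 or more arrays (5323 were), with limma 3.58.1 in R 4.3.3: 1 fit over the 4 groups, two-sided, Benjamini-Hochberg adjustment over all tested probe sets, threshold 0.05. The fit was tested on simulated data. Where a gene had several probe sets, the brightest tested one stood for it. Correlations used 100000 permutations within groups (Python 3.11.15, scipy 1.17.1). Of each of 15 lists, the text names up to the 2 largest differences past the threshold per comparison, and all genes of lists with at most 3 tested. For each marker it names the 3 most similar genes. The members and lists were chosen with earlier results of these data known. Alternatives changed the filter, the prior, the normalization, array weights, covariates, the replicate block and the arrays used. Scan dates were not analysed here, so batches of arrays were not tested. GCRMA subtracts a background modelled from probe sequence, which can compress differences of dim probe sets.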

Additional observations from a re-analysis of the deposited data

Results flagged for a closer look

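In 52 groups of 4 arrays (13 probe sets in 4 groups), 3 held an array far from the other 3, by Dixon's test. Chance alone flags about 1 group in 20. All 3 are D3T arrays. C1qb on its brighter probe set read 8.68 in D3T replicate 1, against 9.01 to 9.05 in the other D3T livers, and this array lies further below vehicle, not nearer to it. The third C1qc probe set read 3.69 in D3T replicate 2, against 3.15 to 3.23 in the other D3T livers. The second Cd14 probe set read 4.51 in D3T replicate 2, against 3.80 to 3.91 in the others. Cd14 in TBD replicate 3, 5.18 on the brighter probe set, did not pass this test although it is the lowest value of that probe set.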

How the results depend on the processing

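Clec4f, C1qb and Aif1 stayed lower and past the threshold under every alternative run, for each compound, with a highest adjusted p of 0.0464. Clec4f ranged from -1.12 to -0.79 with D3T, -1.27 to -0.98 with OLT and -1.14 to -0.80 with TBD, C1qb from -1.31 to -0.58, -1.12 to -0.58 and -1.03 to -0.44, and Aif1 from -2.14 to -1.04, -2.35 to -1.11 and -2.34 to -1.08. The cause of the changes below was not tested.

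Counts over all probe sets moved more. As reported they were 981, 600 and 693 for D3T, OLT and TBD against vehicle, 57 for D3T against OLT, 3 for TBD against OLT and 35 for D3T against TBD. Fits on the 8 arrays compared, which have fewer samples, called 361 for TBD against vehicle and 8 for D3T against TBD. Quantile normalization called 92 for D3T against OLT. Centring on array medians called 361 for OLT, 426 for TBD and 13 for D3T against TBD. Array weights called 2263, 1066 and 1333 against vehicle, 171 for D3T against OLT and 152 for D3T against TBD. The 40th percentile as a covariate called 1741 for D3T, 149 for D3T against OLT and 117 for D3T against TBD. Without OLT replicate 1 and TBD replicate 4 there were 88 for D3T against OLT and 861 for TBD. Leaving out 1 array at a time gave 684 to 1138 for D3T, 416 to 692 for OLT, 458 to 814 for TBD, 30 to 51 for D3T against OLT, 3 to 6 for TBD against OLT and 19 to 34 for D3T against TBD. It gave 3 to 4 marker genes called for OLT. The share of calls that were higher was 33.5%, 30.0% and 27.3% for D3T, OLT and TBD as deposited, 52.9%, 46.5% and 44.9% after quantile normalization and 43.8%, 41.8% and 33.6% after centring.

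Correlated pairs of marker genes past the threshold numbered 1 as reported (Aif1 and Csf1r), 2 after centring (Aif1 with Clec4f and with C1qb), 1 after quantile normalization (Lyz2 and Csf1r), 0 without OLT replicate 1 and TBD replicate 4, and 0 to 2 when single arrays were left out.

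Differences that did not pass changed sign in places. Quantile normalization gave Aif1 0.018 and Csf1r -0.0017 for TBD against OLT. Centring gave Csf1r 0.0045 for OLT against vehicle and -0.0055 for TBD against OLT, and Clec4f -0.066 for D3T against TBD. Array weights gave Lyz2 -0.12 for OLT and -0.21 for TBD, Cd14 0.19 for TBD, and Aif1 0.043 and Csf1r -0.021 for TBD against OLT. The covariate gave Csf1r 0.018 for OLT, 0.014 for TBD and -0.0033 for TBD against OLT. The mean over probe sets gave C1qc 0.050 for D3T and Aif1 0.030 for TBD against OLT. Without OLT replicate 1 and TBD replicate 4, Csf1r was 0.021 for OLT and -0.023 for TBD against OLT, C1qb -0.017 and Lyz2 0.098 for TBD against OLT.

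With single arrays left out, Csf1r ranged from -0.088 to 0.045 for OLT, -0.080 to 0.053 for TBD and -0.036 to 0.066 for TBD against OLT. C1qc ranged from -0.11 to 0.011 for D3T. Lyz2 ranged from -0.097 to 0.23 for TBD and -0.22 to 0.055 for TBD against OLT. Cd14 ranged from -0.70 to 0.48 for TBD and -0.16 to 1.03 for D3T against TBD. Clec4f ranged from -0.16 to 0.12 for D3T against TBD, Aif1 from -0.14 to 0.14 and C1qb from -0.0082 to 0.19 for TBD against OLT, and C1qb from -0.18 to 0.018 for D3T against OLT.

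The replicate numbers were not used to pair the livers. Arrays with the same number correlated at -0.524 to 0.323 in their deviations from the group means, and 8 of 24 pairs were over 0.1. The 72 pairs of arrays with other numbers, from different groups, correlated at -0.406 to 0.55. With the replicate number as a block, 3 marker genes were called against vehicle with each compound, and 888, 526 and 630 probe sets in all.

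C1qc and Csf1r lay close to the array median, and Cd14 had intervals over 2 log2 units wide with 4 livers per group. The SD of Cd14 was 0.43, 0.62 and 0.42 in D3T, OLT and vehicle livers. In TBD livers, which include the low replicate 3, it was 1.57. The 4 groups share 1 estimate of the spread, so that array also widens the D3T and OLT intervals. Cd14 passed against vehicle in no alternative, which include fits on the 8 arrays compared.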

Other observations

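Among 14 tested acute phase genes of hepatocytes, 6 fell and 1 rose with D3T, 1 fell with OLT, and 1 fell and 1 rose with TBD (limma, adjusted p under 0.05). Of all genes, 13.1%, 8.92% and 10.0% fell and 4.61%, 2.61% and 2.80% rose with D3T, OLT and TBD. Orm1, which encodes a plasma acute phase glycoprotein, rose by 1.29 with D3T and 1.25 with TBD on the log2 scale. Apcs, serum amyloid P, fell by 1.00 on the log2 scale with D3T, and Cp, ceruloplasmin, fell with each compound (-0.49, -0.36 and -0.36).

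Few markers of the remaining cell types were both on the array and bright enough to test. None of those tested passed by limma with any compound. The neutrophil marker S100a8 differed from vehicle by 0.19 with D3T, 0.0038 with OLT and 0.0083 with TBD. The B cell marker Cd79b differed by 0.24, 0.14 and 0.66, the last at an unadjusted p under 0.05. The cholangiocyte markers Epcam (-0.11, -0.23 and -0.19) and Cldn7 (0.13, -0.0059 and 0.13) had no unadjusted p under 0.05. The globin genes Hbb (-0.55, 0.02 and 0.20) and Hbb-b1 (-0.85, -0.11 and 0.22), which mark red blood cells, both had an unadjusted p under 0.05 with D3T.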
